A study of Mus musculus with 24 samples.

Results

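Glycolysis, gluconeogenesis and glucose transport were followed in mouse kidney through 38 genes of 35413 summed per gene. The genes were taken by name: 6 of gluconeogenesis, 1 of fructose entry, 17 of glycolysis, 5 of lactate handling, 4 of glucose transport and 5 of the pyruvate dehydrogenase step. Every one was found and passed the filter on low counts in each fit. The genes were not picked by a measured value of these libraries, but the list was drawn up with earlier results of the same data known.

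Whole-kidney RNA of 24 libraries came from 2 experiments. In the knockout experiment, 6 libraries came from mice labelled ENPP1 knockout, which carried floxed Enpp1 and CAG-ERCre, a ubiquitously driven, tamoxifen-inducible Cre, and ate an adenine diet for 14 days. They were set against 6 libraries of Cre-negative wild-type mice on the same diet, and 4 libraries of chow-fed mice. In the antibody experiment, 4 libraries came from adenine-fed mice given a monoclonal antibody to human ENPP1 (mAb, 50 mg/kg intraperitoneally). They were set against 4 libraries of adenine-fed mice given control IgG, also at 50 mg/kg. Both of these groups ate the adenine diet for 14 days. Adenine forms crystals in the tubules and injures them, and ENPP1 is an enzyme that splits extracellular nucleotides. Cre was present in the labelled knockout libraries and absent in the wild type, so the effects of Cre and of the label cannot be told apart. Several facts were not used here since no label states them: the genotype of the chow mice, tamoxifen in the wild type, sex, age and strain, and whether the antibody-treated mice carried the human protein. Where nothing says that libraries of a group came from different mice, their p-values cover only the spread between these samples.

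The proximal tubule of the kidney takes filtered glucose back and also makes glucose from lactate, glutamine and other precursors, while it burns fatty acids rather than glucose. Gluconeogenesis runs most steps of glycolysis backwards and bypasses the irreversible ones with enzymes of its own: Pcx and Pck1 around pyruvate kinase, Fbp1 around phosphofructokinase and G6pc around hexokinase. Glycolysis is a feature of the distal nephron, of immune cells and of injured tubule cells. Enzymes at several of these steps come as isozymes from separate genes, with one form typical of liver and kidney and another of proliferating or oxygen-poor cells.

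Libraries of the knockout experiment held 21164187 to 28350038 assigned reads and those of the antibody experiment 44080791 to 50813749, of which mitochondrial genes took 16.9% to 26.7% and 20.6% to 30.1%. Within its experiment, each library correlated best with a library of its own group. Enpp1 itself lay between 21.6 and 24.7 CPM (estimated counts scaled to a common library size) in the labelled knockout and between 20.9 and 24.9 CPM in the wild type (log2 change 0.05 ± 0.05, edgeR adjusted p = 0.47). Its RNA was not lower under the knockout label, and the group is called the labelled knockout below. Enpp1 was at 9.51, 2.62, 3.26 and 17.4 CPM in mAb libraries and 7.94, 8.86, 8.68 and 7.22 CPM in IgG libraries; an antibody need not change the RNA of its target. Markers of proximal tubule, loop of Henle, collecting duct and podocyte were present in every group.

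Log2 changes come from edgeR's quasi-likelihood test and are given with their standard error (SE), and a gene is called at an adjusted p under 0.05 over all genes tested. Between the labelled knockout and the wild type on adenine, 27 of the 38 genes were higher, 5 were lower and 6 were not called. Over all 16959 genes tested, 46.4% were called in this comparison: 25.1% higher and 21.3% lower. The ranges of CPM in both groups stood apart for 25 genes with the labelled knockout higher and 1 with it lower, against 14.4% and 10.2% of all genes. The median log2 change of the 38 was 0.37, beside -0.02 over all genes.

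Between mAb and IgG, 26 were higher, 7 lower and 5 not called, where 55.3% of 16404 genes were called, 27.2% higher and 28% lower. The ranges stood apart for 26 genes with mAb higher and 6 with it lower, against 25.4% and 25.2% of all genes. The median log2 change was 0.46, beside -0.04 over all genes. Against chow, most of the 38 were lower on adenine. In the labelled knockout, 8 were higher, 29 lower and 1 not called against chow, where 80.1% of all genes were called (40.2% higher, 39.9% lower), with a median of -0.74 beside 0.03 over all genes. In the wild type, 8 were higher, 29 lower and 1 not called against chow, where 84.9% of all genes were called (44% higher, 40.9% lower), with a median of -1.18 beside 0.07. Both comparisons use the same chow libraries.

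**Figure D1:**
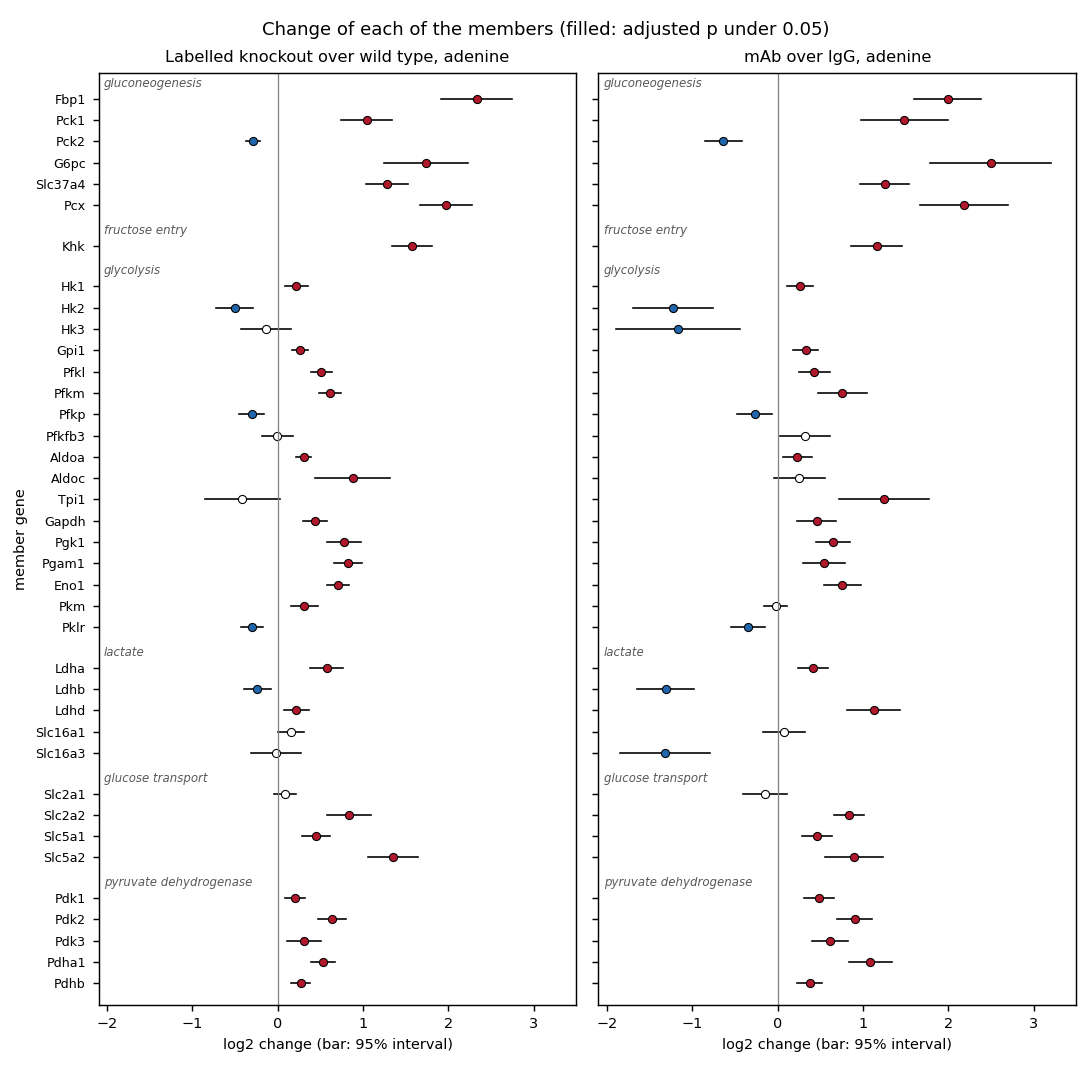
Log2 change (horizontal axis, no unit) of each of the 38 genes, grouped by role down the page, for the labelled knockout over the wild type on adenine (left) and for mAb over IgG on adenine (right). Bars are 95% intervals, filled points passed an adjusted p under 0.05 (red higher, blue lower) and open points did not; 27 genes were higher and 5 lower on the left, 26 higher and 7 lower on the right.

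Of the 6 genes of gluconeogenesis, the 5 other than Pck2 were higher in the labelled knockout than in the wild type and higher with mAb than with IgG. Over all genes, 25.1% and 27.2% were called higher in these comparisons. Pck2 was lower in both comparisons. Fbp1, fructose bisphosphatase, ranged from 117 to 355 CPM (median 214) in the labelled knockout and from 33.9 to 57.2 CPM (median 44.2) in the wild type. It was at 758, 799.8, 561 and 661 CPM in chow. All labelled knockout libraries lay above all wild-type libraries and below all chow libraries (log2 change to wild type 2.33 ± 0.20 SE, edgeR adjusted p = 7.6e-08). In the antibody experiment Fbp1 was at 529, 632, 511 and 747 CPM in mAb libraries and 159.6, 118, 202 and 128 CPM in IgG libraries, again without overlap (1.99 ± 0.18, adjusted p = 4.4e-05).

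Pcx, pyruvate carboxylase, which feeds pyruvate into the pathway as oxaloacetate, ranged from 97.1 to 209.6 CPM (median 136) in the labelled knockout and from 28.8 to 43.5 CPM (median 37.9) in the wild type, with 308, 300.3, 264 and 282 CPM in chow. All labelled knockout libraries lay above all wild-type libraries (log2 change 1.97 ± 0.14, edgeR adjusted p = 1.8e-08). In mAb libraries Pcx was at 162, 246, 209.5 and 267 CPM, and with IgG at 62.4, 31.5, 63.3 and 38.2 CPM (2.18 ± 0.23, adjusted p = 7.2e-05).

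G6pc, the catalytic subunit of glucose-6-phosphatase, which releases free glucose, ranged from 57.6 to 176 CPM (median 109) in the labelled knockout and from 19.6 to 55.3 CPM (median 31.3) in the wild type, with 338, 366, 319.6 and 338 CPM in chow. The ranges stood apart by a narrow gap: the lowest labelled knockout library, replicate 5, lay just above the highest wild-type library, also replicate 5 (log2 change 1.73 ± 0.23, edgeR adjusted p = 9.9e-06). G6pc was at 173, 325, 177 and 346 CPM with mAb and at 44.0, 25.6, 70.7 and 41.0 CPM with IgG (2.49 ± 0.32, adjusted p = 0.00014). Replicates 2 and 4 of mAb lay high and replicates 1 and 3 lower, and all 4 lay above the IgG libraries.

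Slc37a4 carries glucose-6-phosphate to that enzyme. It was higher in the labelled knockout, with 83.6 to 161 CPM (median 117), than in the wild type, with 43.1 to 53.5 CPM (median 51; log2 change 1.28 ± 0.11, edgeR adjusted p = 1.3e-07). It was also higher with mAb, at 114, 122, 102 and 150.2 CPM, than with IgG, at 47.6, 43.6, 60.2 and 53.2 CPM (1.25 ± 0.13, adjusted p = 5.9e-05). Neither pair of groups overlapped.

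The pair of PEPCK genes, which make phosphoenolpyruvate, split. Pck1, the cytosolic form and the one hormones regulate, ranged from 977 to 1864 CPM (median 1530) in the labelled knockout and from 539.8 to 934 CPM (median 705) in the wild type, with 2275, 2395, 2553 and 2320 CPM in chow (log2 change to wild type 1.04 ± 0.14, edgeR adjusted p = 1.3e-05). In mAb libraries Pck1 was at 3302, 4782, 4648 and 5453 CPM, and with IgG at 2064, 972, 1971 and 1494 CPM (1.48 ± 0.23, adjusted p = 0.00039). Pck2, the mitochondrial form and a gene of the amino acid stress response, had a narrow range of 38.7 to 42.8 CPM in the labelled knockout, below the 46.0 to 52.6 CPM of the wild type (log2 change -0.29 ± 0.04, adjusted p = 1.3e-05). Chow libraries lay lower still, at 34.7, 34.1, 35.7 and 33.0 CPM. It was at 17.0, 16.7, 15.8 and 13.1 CPM with mAb and 25.8, 27.1, 22.1 and 22.5 CPM with IgG (-0.64 ± 0.10, adjusted p = 0.0004). Pck2 was the only gene of this role that was higher on adenine than on chow, by 0.26 ± 0.05 (log2, adjusted p = 4.9e-05) in the labelled knockout and 0.54 ± 0.05 (adjusted p = 1.7e-09) in the wild type. With transcripts annotated as protein coding alone, an alternative chosen after seeing the data, these 2 differences from chow were -0.12 (adjusted p = 0.14) and 0.09 (adjusted p = 0.26), while those between adenine groups stayed called. Per length, Pck1 was the higher form, at 673 TPM against 23.0 TPM of Pck2 in the labelled knockout and 336 against 29.7 TPM in the wild type.

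**Figure D2:**
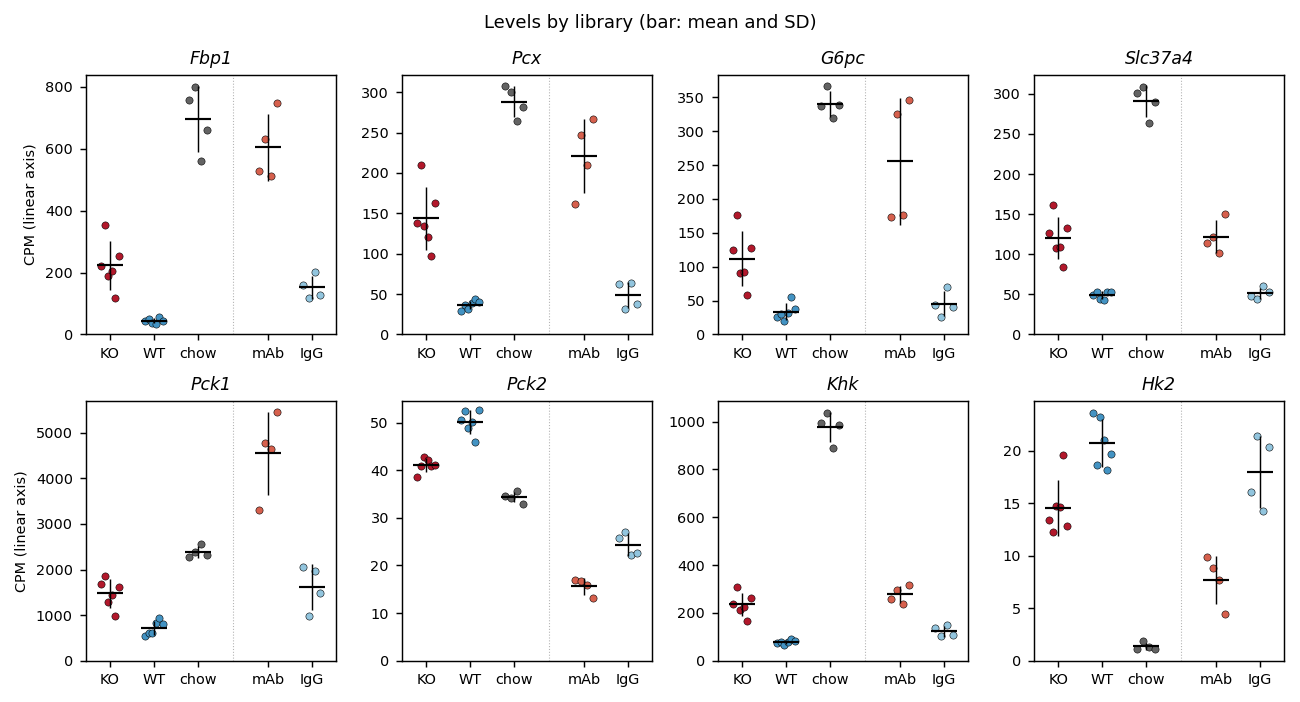
CPM (vertical axes, linear from 0) of 8 genes in each library: the labelled knockout (KO, n = 6), wild type (WT, n = 6) and chow (n = 4) of the knockout experiment, then mAb and IgG (n = 4 each) of the antibody experiment, all but chow on adenine; bars are mean and SD. Fbp1, Pcx, G6pc, Slc37a4, Pck1 and Khk lie above the wild type in the labelled knockout and above IgG with mAb, and Pck2 and Hk2 lie mostly or wholly below.

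Khk, ketohexokinase, which phosphorylates fructose and so feeds it into the pathway, was higher in both comparisons too. It ranged from 168 to 308 CPM (median 231) in the labelled knockout and from 66.7 to 91.5 CPM (median 80.4) in the wild type, with 996, 1035, 889.9 and 986 CPM in chow (log2 change to wild type 1.57 ± 0.11, edgeR adjusted p = 1.4e-08). It was at 257, 298, 238 and 316 CPM with mAb and 138, 102, 149 and 107 CPM with IgG (1.16 ± 0.14, adjusted p = 9.1e-05). The groups did not overlap in either experiment, and the labelled knockout stayed below chow (log2 change -2.05 ± 0.12, adjusted p = 1.3e-11).

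The proximal tubule markers were higher in both comparisons as well, and their part in these results was not tested. The summed level of 15 such markers was 11006 CPM on average in the labelled knockout (7605 to 14510), 3763 CPM in the wild type (2781 to 5191) and 34668 CPM in chow (33301 to 35928), and 24061 CPM with mAb (19859 to 30656) against 8397 CPM with IgG (5704 to 10314). All 15 were called higher in the labelled knockout than in the wild type and with mAb than with IgG, beside 25.1% and 27.2% of all genes. The sum of these markers differed 2.92-fold and 2.87-fold in these comparisons. Replicate 5 had the lowest sum of the labelled knockout and the highest of the wild type. In bulk tissue fewer cells of a type and less RNA per cell cannot be told apart.

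Set against this sum, in a calculation added after the values were seen, the genes differed among themselves. Per 1000 CPM of proximal tubule markers, G6pc was at 9.86 ± 1.59 CPM in the labelled knockout and 8.75 ± 1.60 CPM in the wild type (SD, n = 6 each), and these ranges overlapped. Pcx was at 13.0 ± 0.993 and 9.89 ± 1.03 CPM in these groups, with ranges apart, and Fbp1 at 19.8 ± 2.98 and 12.2 ± 2.90 CPM, with ranges that overlapped. Pck1 was lower on this scale in the labelled knockout, at 134 ± 7.01 CPM, than in the wild type, at 191 ± 10.1 CPM, with no overlap, and so was Slc2a2, at 5.88 ± 0.303 against 9.98 ± 1.76 CPM. Slc37a4, at 10.9 ± 0.144 and 13.6 ± 3.06 CPM, and Slc5a2, at 41.6 ± 2.54 and 48.4 ± 3.88 CPM, had lower means in the labelled knockout with ranges that overlapped. Khk was level, at 21.5 ± 0.634 and 21.7 ± 3.57 CPM.

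In the antibody experiment the same scale gave Fbp1 at 25.3 ± 2.40 CPM with mAb and 18.3 ± 2.25 CPM with IgG (SD, n = 4 each). G6pc was at 10.5 ± 2.92 and 5.27 ± 1.11 CPM, and Pcx at 9.20 ± 1.14 and 5.74 ± 0.691 CPM, in mAb and IgG libraries; all 3 genes were without overlap and higher with mAb. Pck1 was level, at 189 ± 20.4 CPM with mAb and 191 ± 17.2 CPM with IgG. Khk (11.7 ± 1.52 against 15.0 ± 1.92 CPM), Slc5a2 (3.78 ± 0.520 against 5.85 ± 0.516 CPM) and Slc2a2 (8.19 ± 1.13 against 13.4 ± 2.84 CPM) were lower with mAb on this scale, without overlap, and Slc37a4 had a lower mean with overlap (5.11 ± 0.555 against 6.29 ± 1.19 CPM). These ratios depend on the 15 markers chosen and carry no test.

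G6pc and Pck1 were higher in the labelled knockout and with mAb, and Hk2 was lower in both. Promoters of these 3 genes at the ends of the pathway are printed with a short element marked in each. They run from 250 bases before to 50 after the transcription start, 5′ to 3′ on the gene's strand, from RefSeq on GRCm38.p6, and lie at chr11:101367466-101367765 (+), chr2:173152823-173153122 (+) and chr6:82774405-82774704 (-). Capitals mark the TATA box TATAAA in G6pc, the liver-type cyclic AMP element TTACGTCA in Pck1 and the core of the hypoxia response element, ACGTG, on either strand in Hk2 (where it reads CACGT on the printed strand, at 2 places).
G6pc promoter: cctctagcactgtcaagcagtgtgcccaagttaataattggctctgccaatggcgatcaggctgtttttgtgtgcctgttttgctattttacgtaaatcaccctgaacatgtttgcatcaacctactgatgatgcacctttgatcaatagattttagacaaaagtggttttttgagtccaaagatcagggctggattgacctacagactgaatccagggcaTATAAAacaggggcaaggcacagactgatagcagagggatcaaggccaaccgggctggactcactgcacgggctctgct
Pck1 promoter: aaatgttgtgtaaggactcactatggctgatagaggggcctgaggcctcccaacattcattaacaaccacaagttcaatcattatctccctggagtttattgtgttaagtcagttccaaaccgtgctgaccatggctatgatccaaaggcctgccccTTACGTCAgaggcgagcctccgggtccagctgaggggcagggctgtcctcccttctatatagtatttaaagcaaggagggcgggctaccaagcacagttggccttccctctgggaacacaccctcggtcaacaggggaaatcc
Hk2 promoter: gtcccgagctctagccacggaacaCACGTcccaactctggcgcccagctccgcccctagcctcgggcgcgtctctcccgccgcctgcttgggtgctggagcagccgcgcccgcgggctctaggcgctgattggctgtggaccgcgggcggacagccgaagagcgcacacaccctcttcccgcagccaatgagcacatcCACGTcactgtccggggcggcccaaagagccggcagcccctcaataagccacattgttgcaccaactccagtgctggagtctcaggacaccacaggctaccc
The table held 55 promoters of 37 of the 38 genes; Slc5a2 had none. Motifs were searched on both strands. ACGTG was found in 25 of the 55 (45.5%), in 22 genes, beside 19.6% of all 32851 promoters. Of these genes, Hk2 alone was called lower in the labelled knockout than in the wild type. Hk2, Hk3 and Slc16a3 were lower with mAb than with IgG. Gapdh, Pgk1, Pgam1, Ldha, Pcx and Khk, which also hold ACGTG, were among those higher in both comparisons. The E-box CACGTG, which contains ACGTG, was found in 9 (16.4% beside 7.15%). TTACGTCA was found in Pck1 alone (1.82% beside 0.499%) and the full cyclic AMP element TGACGTCA in Ldha alone (1.82% beside 1.79%). TATAAA was found in 4 (7.27% beside 13.6%), CCAAT in 22 (40% beside 37.4%), GGGCGG in 29 (52.7% beside 35.7%) and the forkhead sequence GTAAACA in 1 (1.82% beside 3.65%). The HNF4 sequence CAAAGTCCA (0.475% of all) and the HNF1 palindrome (0.061% of all) were found in none of the 55. A match is a description of the letters and not a site of binding. Each element was searched as a fixed sequence, so near matches were missed and no match does not show that an element is absent.

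Most genes of glycolysis were higher too. Of its 17, 11 were higher in the labelled knockout than in the wild type, 3 were lower and 3 were not called, none by 2-fold. With mAb against IgG, 10 were higher, 4 lower and 3 not called. Over all genes tested, 25.1% were called higher and 21.3% lower in the first comparison, and 27.2% and 28% in the second. Markers of loop of Henle and distal tubule summed to 4159 CPM on average in the labelled knockout (3610 to 5012) and 2874 CPM in the wild type (2448 to 3045), and to 3358 CPM with mAb (2708 to 3995) and 1967 CPM with IgG (1800 to 2138). Of these 9 markers 7 were called higher in the labelled knockout, and with mAb 8 were higher and 1 lower. The sum of 8 collecting duct markers differed 1.37-fold and 1.43-fold in these comparisons, with 5 called higher in each, and the ranges of both sums stood apart in both. Their part in the glycolytic changes was not tested.

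The isozymes of the first step split. Hk1, the hexokinase most cells carry, ranged from 90.1 to 105 CPM (median 99.8) in the labelled knockout and from 75.6 to 89.2 CPM (median 87.1) in the wild type, with 107, 93.2, 77.3 and 85.4 CPM in chow. It was at 51, 55.7, 47.4 and 47.0 CPM with mAb and 42.8, 43.4, 39.7 and 42 CPM with IgG. It was higher by 0.22 ± 0.07 (log2, edgeR adjusted p = 0.011) and by 0.26 ± 0.07 (adjusted p = 0.008); under upper-quartile scaling both calls were lost (adjusted p = 0.053 and 0.21).

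Hk2, the insulin- and hypoxia-responsive hexokinase, lay low in chow, at 1.15, 1.83, 1.34 and 1.17 CPM. On adenine it ranged from 12.3 to 19.6 CPM (median 14.0) in the labelled knockout and from 18.1 to 23.6 CPM (median 20.4) in the wild type. Replicate 5 alone of the labelled knockout reached into the wild-type range; it is also the library with the lowest proximal tubule markers (log2 change -0.51 ± 0.10, edgeR adjusted p = 0.00066). Hk2 was 3.41 ± 0.17 above chow in the labelled knockout (log2, adjusted p = 1.9e-12) and 3.92 ± 0.17 above chow in the wild type (adjusted p = 9.1e-14). With mAb it was at 9.84, 8.79, 7.64 and 4.5 CPM and with IgG at 16, 21.4, 14.2 and 20.3 CPM, without overlap (-1.22 ± 0.21, adjusted p = 0.00073). Markers of injured tubule, such as Havcr1, summed to 14314 CPM in the labelled knockout (12305 to 16883) and 17953 CPM in the wild type (13772 to 21551), with overlap. Of these 7 markers, 5 were called lower in the labelled knockout and 2 were not called, beside 21.3% of all genes called lower. The sum was 1736 CPM in chow. It was 26343 CPM with mAb (20502 to 33616) and 43035 CPM with IgG (41517 to 44669). All 7 were called lower with mAb, beside 28% of all genes. The part of these markers in the Hk2 level was not tested.

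Hk3, a hexokinase of myeloid cells, did not pass the test in the labelled knockout (2.54 to 4.40 CPM, median 3.4) against the wild type (2.81 to 4.39 CPM, median 3.86; log2 change -0.14, 95% interval -0.43 to 0.16). It was at 0.741, 0.348, 0.774 and 0.413 CPM with mAb and 0.856, 1.88, 1.03 and 1.36 CPM with IgG, and all mAb libraries lay below all IgG libraries (-1.17 ± 0.33, edgeR adjusted p = 0.012), a call lost with coding transcripts alone (adjusted p = 0.55). Macrophage markers went the same way. Their sum was 466 CPM in the labelled knockout (419 to 553) and 480 CPM in the wild type (378 to 554), but 220 CPM with mAb (174 to 253) and 514 CPM with IgG (383 to 756). All 9 were called lower with mAb, beside 28% of all genes. The pattern was not particular to macrophages. Sums of neutrophil, lymphocyte, fibroblast, injured tubule and proliferation markers also overlapped between labelled knockout and wild type. All of these sums were lower with mAb than with IgG, without overlap. The fibroblast sum, for example, was 662 CPM in the labelled knockout, 563 CPM in the wild type, 176 CPM with mAb and 493 CPM with IgG. The part of these markers in the Hk3 level was not tested.

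At the phosphofructokinase step, which commits glucose to glycolysis, Pfkl ranged from 41.4 to 44.1 CPM (median 43.9) in the labelled knockout and 28.1 to 32.9 CPM (median 30.3) in the wild type (log2 change 0.51 ± 0.06, edgeR adjusted p = 2.3e-06). Pfkm ranged from 36.4 to 45.0 CPM (median 40.3) and from 23.0 to 29.0 CPM (median 26.8) in these groups (0.61 ± 0.06, adjusted p = 3.8e-07). Both were also higher with mAb, Pfkl at 22.5, 26.5, 23.9 and 24.4 CPM against 16.6, 18.2, 20.3 and 17.1 CPM with IgG (0.43 ± 0.08, adjusted p = 0.0013), and Pfkm at 22.6, 28.9, 24.5 and 32.3 CPM against 18.1, 13.4, 17.7 and 14.8 CPM with IgG (0.76 ± 0.13, adjusted p = 0.00065). Pfkp, the platelet-type form, was lower in the labelled knockout, with 67.6 to 88.5 CPM (median 77.2), than in the wild type, with 85.3 to 106 CPM (median 96.1; -0.31 ± 0.07, adjusted p = 0.0017). In these groups most Pfkp reads lay in transcripts not annotated as coding: coding transcripts took 38% of Pfkp reads in the labelled knockout, 27.5% in the wild type and 64.1% in chow. With them alone the change was 0.10 (adjusted p = 0.47). Pfkp was at 72.0, 68.4, 70.5 and 57.9 CPM with mAb and 70.3, 87.2, 79.1 and 87.8 CPM with IgG, with overlap (-0.27 ± 0.09, adjusted p = 0.026). This call was lost with coding transcripts alone (-0.15, adjusted p = 0.25), with the replicate number as a block (adjusted p = 0.07), and when mAb replicate 2 or 4 or IgG replicate 2 or 4 was left out (adjusted p = 0.054 to 0.093). Pfkfb3, which makes the activator fructose-2,6-bisphosphate, did not pass the test in either experiment (log2 change -0.00, 95% interval -0.18 to 0.18, and 0.32, 95% interval 0.02 to 0.61). It was called higher with mAb with coding transcripts alone (0.92, edgeR adjusted p = 0.011), under RLE scaling (adjusted p = 0.049), by DESeq2 (adjusted p = 0.037) and without mAb replicate 4 or IgG replicate 4.

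Further down the pathway, the labelled knockout was higher for Aldoa, Aldoc, Gapdh, Pgk1, Pgam1 and Eno1. Aldoc, an aldolase best known from brain, ranged from 4.94 to 10.4 CPM (median 6.69) in the labelled knockout and from 2.26 to 4.92 CPM (median 4.13) in the wild type, with 34.2, 27.6, 16.9 and 24 CPM in chow (log2 change to wild type 0.88 ± 0.21, edgeR adjusted p = 0.0023). In mAb libraries Aldoc was at 3.19, 2.97, 2.67 and 3.49 CPM and with IgG at 2.40, 2.58, 2.54 and 2.79 CPM, which did not pass (0.26, 95% interval -0.04 to 0.55; 0.46 with coding transcripts alone, adjusted p = 0.037). Aldoa, the general aldolase, ranged from 731 to 779 CPM (median 749) in the labelled knockout and from 593 to 631 CPM (median 605) in the wild type (0.30 ± 0.04, adjusted p = 1.6e-05). With mAb Aldoa was at 495, 533, 529 and 489 CPM and with IgG at 481, 412, 443 and 408 CPM (0.23 ± 0.08, adjusted p = 0.028), a call lost under upper-quartile scaling (adjusted p = 0.41), with coding transcripts alone, and when mAb replicate 2 or 3 or IgG replicate 2, 3 or 4 was left out.

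Pgam1, phosphoglycerate mutase, ranged from 119.7 to 174 CPM (median 140.2) in the labelled knockout and from 71.9 to 85.7 CPM (median 82.3) in the wild type, with 420.2, 424, 338 and 381 CPM in chow (log2 change to wild type 0.82 ± 0.08, edgeR adjusted p = 2.4e-07). Pgk1, which makes the first ATP of the pathway, ranged from 187 to 263 CPM (median 226) and from 108 to 152 CPM (median 128) in these groups, with 572, 579, 441 and 528 CPM in chow (0.78 ± 0.09, adjusted p = 2.9e-06). Eno1, Gapdh and Gpi1 were higher by 0.71 ± 0.06, 0.43 ± 0.07 and 0.26 ± 0.04 (adjusted p = 1e-07, 4.1e-05 and 0.00015). All 5 were higher with mAb too, by 0.54 ± 0.11 for Pgam1, 0.65 ± 0.09 for Pgk1, 0.76 ± 0.10 for Eno1, 0.46 ± 0.10 for Gapdh and 0.33 ± 0.07 for Gpi1, and the ranges of both groups stood apart for each in both experiments. Glycolytic genes such as Gapdh, Ldha and Pgk1 have many processed pseudogenes, with which the authors' quantification may have divided reads. Gpi1 and Tpi1 have another limit. Coding transcripts took 36.3% of Gpi1 reads in the labelled knockout, 29.0% in the wild type, 57.0% with mAb and 43.5% with IgG. With these transcripts alone the Gpi1 changes were 0.53 in the labelled knockout and 0.65 with mAb. For Tpi1, coding transcripts took 8.18% of reads in the labelled knockout, 13.8% in the wild type, 73.0% with mAb and 32.2% with IgG. Its median was 12.1 CPM in the labelled knockout and 16.2 CPM in the wild type, which did not pass the test (-0.42, 95% interval -0.86 to 0.02). Tpi1 was called lower when labelled knockout replicate 5 was left out (adjusted p = 0.02) and with coding transcripts alone (-1.43, adjusted p = 0.042), and it was higher with mAb (1.25 ± 0.24, adjusted p = 0.0014).

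Pyruvate kinase closes the pathway. Pkm ranged from 217 to 252 CPM (median 231) in the labelled knockout and from 168 to 210.1 CPM (median 184) in the wild type, with 454, 390.2, 318 and 378 CPM in chow (log2 change to wild type 0.31 ± 0.08, edgeR adjusted p = 0.0028). Pkm was at 153, 162, 150.0 and 152 CPM with mAb and at 158, 159.9, 159.5 and 151 CPM with IgG, which lay on top of each other (-0.02, 95% interval -0.16 to 0.11; -0.18 under upper-quartile scaling, adjusted p = 0.019). Pklr, the form of liver, kidney and red cells, ranged from 50.0 to 59.5 CPM (median 52.4) in the labelled knockout and from 56.7 to 78.0 CPM (median 65.3) in the wild type, with 41.0, 40.5, 41.0 and 42.7 CPM in chow (-0.30 ± 0.06, adjusted p = 0.00082). It was at 91.5, 76.0, 70.8 and 67.8 CPM with mAb and 96.2, 97.3, 103 and 93.7 CPM with IgG (-0.35 ± 0.09, adjusted p = 0.0072). Pklr was above chow on adenine, by 0.37 ± 0.07 in the labelled knockout and by 0.67 ± 0.07 in the wild type (log2). In the knockout experiment red cell markers ran opposite to Pklr, with a sum of 357 CPM in the labelled knockout, 22.9 CPM in the wild type and 1192 CPM in chow. In the antibody experiment their sum was 46.6 CPM with mAb and 37.9 CPM with IgG, with overlap, and none of these markers was called. The part of red cell markers in the Pklr level was not tested.

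Pkm makes a pair of enzymes from 2 exons of equal length that exclude each other: M1, typical of muscle and brain, and M2, typical of proliferating and many other cells. Both exons lie on chr9 of GRCm38, plus strand, M1 at chr9:59675029-59675195 and M2 at chr9:59675568-59675734. They are shown since transcripts were sorted below by which of these exons they hold. Estimated reads were summed over whole transcripts, and reads within the exons were not counted apart. Capitals mark the 64 of 167 positions at which the exons differ (61.7% identical).
Pkm M1 exon: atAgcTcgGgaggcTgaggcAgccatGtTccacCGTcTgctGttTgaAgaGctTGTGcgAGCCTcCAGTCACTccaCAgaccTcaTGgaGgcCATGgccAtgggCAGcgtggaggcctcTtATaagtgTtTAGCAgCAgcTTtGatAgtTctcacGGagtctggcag
Pkm M2 exon: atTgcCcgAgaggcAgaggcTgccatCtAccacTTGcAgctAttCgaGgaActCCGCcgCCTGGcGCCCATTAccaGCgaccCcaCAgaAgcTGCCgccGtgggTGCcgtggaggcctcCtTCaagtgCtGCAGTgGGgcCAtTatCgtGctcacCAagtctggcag
The annotation resolved 2 transcripts with the M1 exon and 1 with the M2 exon. The M1 transcripts took 7.32% ± 0.465 of these Pkm reads in the labelled knockout, 5.78% ± 0.495 in the wild type (SD, n = 6 each) and 8.31% ± 1.42 in chow (n = 4). The labelled knockout ran from 6.71% to 7.84% and the wild type from 5.04% to 6.24%, without overlap, so M2 was the main form in every library and slightly less so in the labelled knockout. With mAb the share was 9.69% ± 1.49 (8.12% to 11.7%) and with IgG 3.16% ± 0.714 (2.34% to 3.93%; n = 4 each), again without overlap. By TPM, the shares were 15.2% in the labelled knockout, 14.4% in the wild type, 11.5% in chow, 13.5% with mAb and 6.32% with IgG, and labelled knockout and wild type overlapped.

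Lactate handling was mixed. Ldha, the lactate dehydrogenase subunit of glycolytic tissues, ranged from 222 to 265 CPM (median 238) in the labelled knockout and from 129.8 to 191 CPM (median 161) in the wild type, with 520.5, 516, 376 and 491 CPM in chow (log2 change to wild type 0.57 ± 0.09, edgeR adjusted p = 5.3e-05). It was at 529, 548, 518 and 529 CPM with mAb and 416, 394, 437 and 349.8 CPM with IgG (0.41 ± 0.08, adjusted p = 0.0016). Ldhb, the subunit of oxidative tissues, ranged from 73.3 to 93.6 CPM (median 82.5) in the labelled knockout and from 80.3 to 112 CPM (median 97.8) in the wild type, with overlap (-0.24 ± 0.08, adjusted p = 0.014). It was at 83.3, 50.4, 53.6 and 66.3 CPM with mAb and 187, 149, 143 and 151 CPM with IgG (-1.31 ± 0.15, adjusted p = 8.6e-05). Of 4 annotated Ldhb transcripts 3 were analysed here, so Ldhb values are partial and no Ldha to Ldhb share is given.

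Ldhd, which oxidises D-lactate in mitochondria, ranged from 116 to 149 CPM (median 142) in the labelled knockout and from 97.0 to 131 CPM (median 122) in the wild type, with overlap (log2 change 0.21 ± 0.07, edgeR adjusted p = 0.017). Upper-quartile scaling ended that call (adjusted p = 0.063). With mAb it was at 682, 783, 732 and 891 CPM and with IgG at 405, 266, 412 and 334 CPM (1.12 ± 0.14, adjusted p = 0.00013). Most of its reads lay outside coding transcripts: these took 16.1% in the labelled knockout, 9.35% in the wild type, 16.5% with mAb and 2.45% with IgG. With coding transcripts alone the changes were 0.97 and 3.84. The lactate exporters differed. Slc16a1, the general monocarboxylate carrier, did not pass in either experiment (0.16, 95% interval 0.01 to 0.31, and 0.07, 95% interval -0.18 to 0.33), and was called in the labelled knockout when wild-type replicate 2 (adjusted p = 0.045) or chow replicate 3 (adjusted p = 0.049) was left out. Slc16a3, the carrier of glycolytic and myeloid cells, lay at 2.94 to 4.36 CPM in the labelled knockout and 2.77 to 4.69 CPM in the wild type (-0.02, 95% interval -0.32 to 0.27). It was at 0.519, 0.580, 0.516 and 0.517 CPM with mAb and 1.2, 1.82, 0.975 and 1.34 CPM with IgG (-1.32 ± 0.24, adjusted p = 0.00093). The sums of macrophage and other markers given above for Hk3 stand beside it, and their part was not tested.

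Of 4 glucose carriers, 3 were higher in both comparisons, beside 25.1% and 27.2% of all genes, and 1 was not called in either. Slc5a2, the sodium-glucose cotransporter SGLT2 that reclaims most filtered glucose in the early proximal tubule, ranged from 289 to 589 CPM (median 465) in the labelled knockout and from 132 to 219 CPM (median 184) in the wild type, with 692, 734, 707 and 720.2 CPM in chow (log2 change to wild type 1.35 ± 0.14, edgeR adjusted p = 4.7e-07). It was at 69.7, 98.8, 93.9 and 98.1 CPM with mAb and 59.2, 36.7, 54.3 and 44.1 CPM with IgG (0.89 ± 0.15, adjusted p = 0.00067). Slc2a2, the GLUT2 carrier at the basolateral side, ranged from 42.3 to 89.8 CPM (median 64.8) in the labelled knockout and from 31.4 to 40.4 CPM (median 36.5) in the wild type, with 176, 184, 172 and 181 CPM in chow (0.84 ± 0.12, adjusted p = 2.2e-05). With mAb it was at 189, 196, 179.5 and 209.9 CPM and with IgG at 104, 97.5, 121 and 111 CPM (0.84 ± 0.08, adjusted p = 5.2e-05).

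Slc5a1, the SGLT1 cotransporter of the late proximal tubule, changed less. It ranged from 27.7 to 37.9 CPM (median 32.4) in the labelled knockout and from 21 to 26.2 CPM (median 23.0) in the wild type, with 87.3, 80.8, 74.0 and 81.2 CPM in chow (log2 change to wild type 0.45 ± 0.08, edgeR adjusted p = 0.00013). It was at 88.4, 108, 103 and 100.3 CPM with mAb and 67.6, 80.8, 71.8 and 69.6 CPM with IgG (0.46 ± 0.08, adjusted p = 0.00073). None of these 3 carriers overlapped between the groups of either experiment. Slc2a1, the GLUT1 carrier of most cells, did not pass: 47.0 to 57.6 CPM (median 54.3) in the labelled knockout and 47.0 to 59.5 CPM (median 49.0) in the wild type (0.09, 95% interval -0.05 to 0.22), and 51.2, 50.6, 40.3 and 35.4 CPM with mAb against 53.6, 49.0, 44.1 and 50.4 CPM with IgG (-0.15, 95% interval -0.41 to 0.10). Its result turned with the transcripts counted: coding transcripts took 23.7% of its reads in the labelled knockout, 17.6% in the wild type, 27.2% with mAb and 13.0% with IgG. With coding transcripts alone Slc2a1 was called higher in both, by 0.46 (edgeR adjusted p = 0.005) and 0.86 (adjusted p = 0.00081). Under upper-quartile scaling it was called lower with mAb (-0.31, adjusted p = 0.043).

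**Figure D3:**
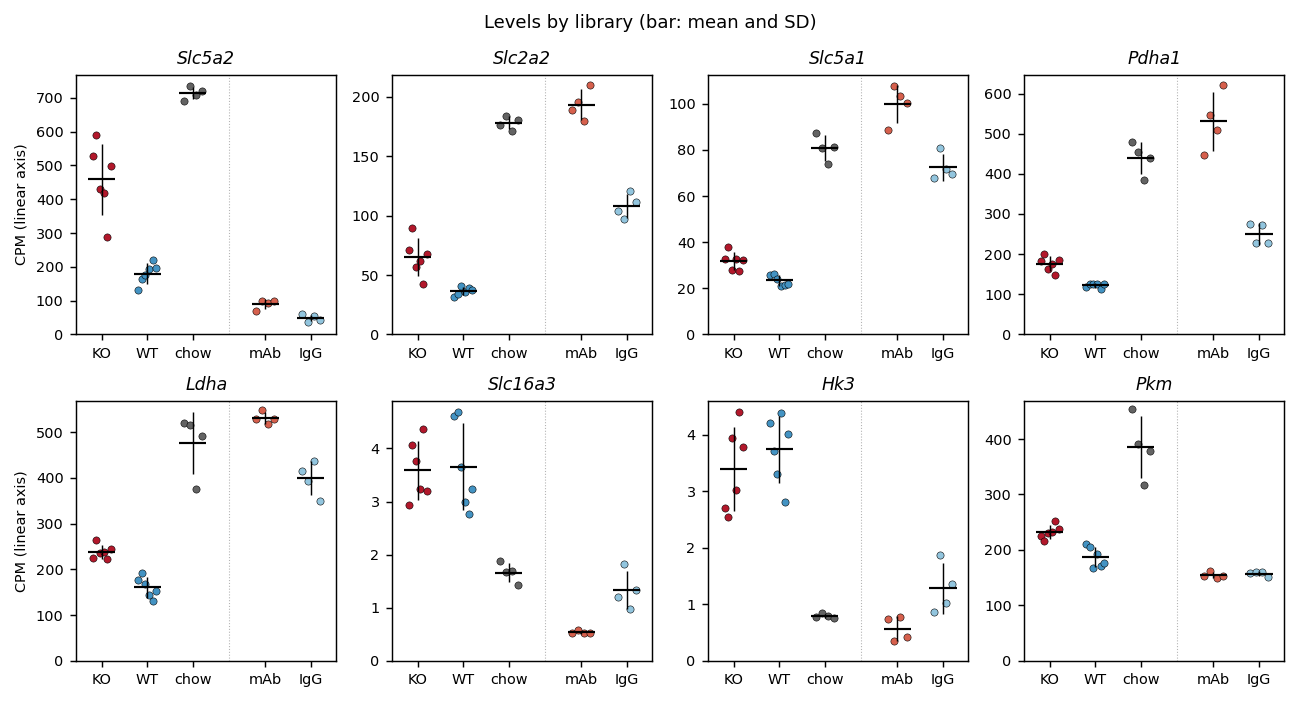
CPM (vertical axes, linear from 0) by library of 3 glucose carriers, Pdha1, Ldha, the lactate carrier Slc16a3, the hexokinase Hk3 and Pkm, in the labelled knockout (KO), wild type (WT), chow, mAb and IgG libraries, all but chow on adenine; bars are mean and SD. Slc5a2, Slc2a2, Slc5a1, Pdha1 and Ldha lie higher in KO than in WT and with mAb than with IgG, while Slc16a3 and Hk3 are lower with mAb than with IgG and overlap between KO and WT.

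Pyruvate dehydrogenase turns pyruvate into acetyl-CoA and is switched off by the kinases Pdk1 to Pdk4. All 5 member genes of this step, 2 subunits and the kinases Pdk1 to Pdk3, were higher in the labelled knockout than in the wild type and with mAb than with IgG. Over all genes, 25.1% and 27.2% were called higher in these comparisons. Pdk4, which is not among the 38, was lower in the labelled knockout (log2 change -1.35 ± 0.09, edgeR adjusted p = 7.7e-09) and was not called with mAb. Pdha1, the subunit that carries the regulated sites, ranged from 148 to 200.3 CPM (median 179) in the labelled knockout and from 113 to 126 CPM (median 125) in the wild type, with 479, 455, 385 and 439.7 CPM in chow (log2 change to wild type 0.53 ± 0.07, edgeR adjusted p = 5.8e-06). It was at 446, 547, 508 and 622 CPM with mAb and 274, 227, 272 and 228 CPM with IgG (1.08 ± 0.11, adjusted p = 6.3e-05). Pdk2, the most widespread kinase, ranged from 106 to 155 CPM (median 128) and from 73.7 to 92.5 CPM (median 83.9) in labelled knockout and wild type (0.63 ± 0.08, adjusted p = 2.5e-06). It was at 67.1, 78.1, 63.9 and 84.6 CPM with mAb and 42.2, 37.2, 39.6 and 38.3 CPM with IgG (0.90 ± 0.09, adjusted p = 5.9e-05).

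Pdk3 ranged from 10.4 to 12.0 CPM (median 11.1) in the labelled knockout and from 7.33 to 10.8 CPM (median 9.15) in the wild type, with overlap (log2 change 0.31 ± 0.10, edgeR adjusted p = 0.012). It was at 32.4, 35.6, 32.8 and 39.9 CPM with mAb and 21.2, 22.6, 26.9 and 21.1 CPM with IgG (0.62 ± 0.10, adjusted p = 0.0004). Its call in the labelled knockout was lost with transcript lengths as an offset (adjusted p = 0.074). Pdk1, a kinase that hypoxia raises, ranged from 33.3 to 39.4 CPM (median 36.0) in the labelled knockout and from 28.7 to 33.3 CPM (median 31.8) in the wild type (0.20 ± 0.05, adjusted p = 0.0046), a call lost with coding transcripts alone (0.13, adjusted p = 0.16). Pdk1 was higher with mAb by 0.48 ± 0.08 (adjusted p = 0.00063). Pdhb, the other subunit of the first enzyme, was higher by 0.27 ± 0.05 (adjusted p = 0.00032) in the labelled knockout and by 0.37 ± 0.07 (adjusted p = 0.00096) with mAb.

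The opposed enzymes of a step can be read against each other within a library, per length, as the log2 ratio of their TPM. G6pc over the sum of the hexokinases was 0.47 ± 0.58 in the labelled knockout, -1.21 ± 0.51 in the wild type (SD, n = 6 each) and 2.54 ± 0.15 in chow (n = 4), and 2.73 ± 0.63 with mAb and -0.04 ± 0.66 with IgG (n = 4 each). The labelled knockout ran from -0.42 to 1.35 and the wild type from -1.71 to -0.34, so they met at a single pair of libraries, replicate 5 of each. Fbp1 over the phosphofructokinases was 1.49 ± 0.48, -0.64 ± 0.16 and 3.17 ± 0.11 in labelled knockout, wild type and chow, and 3.35 ± 0.28 with mAb and 1.49 ± 0.41 with IgG, without overlap between labelled knockout and wild type or between mAb and IgG. Pck1 over the pyruvate kinases was 2.07 ± 0.39, 1.14 ± 0.36 and 2.32 ± 0.25, and 4.13 ± 0.36 with mAb and 2.48 ± 0.50 with IgG. That ratio overlapped between labelled knockout and wild type and between labelled knockout and chow, and it stood apart between mAb and IgG. In the wild type on adenine, the hexokinases outweighed G6pc, and in chow the reverse held. For Fbp1 the sign in the wild type turned with the transcripts counted: with coding transcripts alone its ratio was 2.21 ± 0.41 in the labelled knockout and 0.42 ± 0.16 in the wild type. These ratios carry no test, share the proximal tubule genes described above, and describe RNA and not flux.

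**Figure D4:**
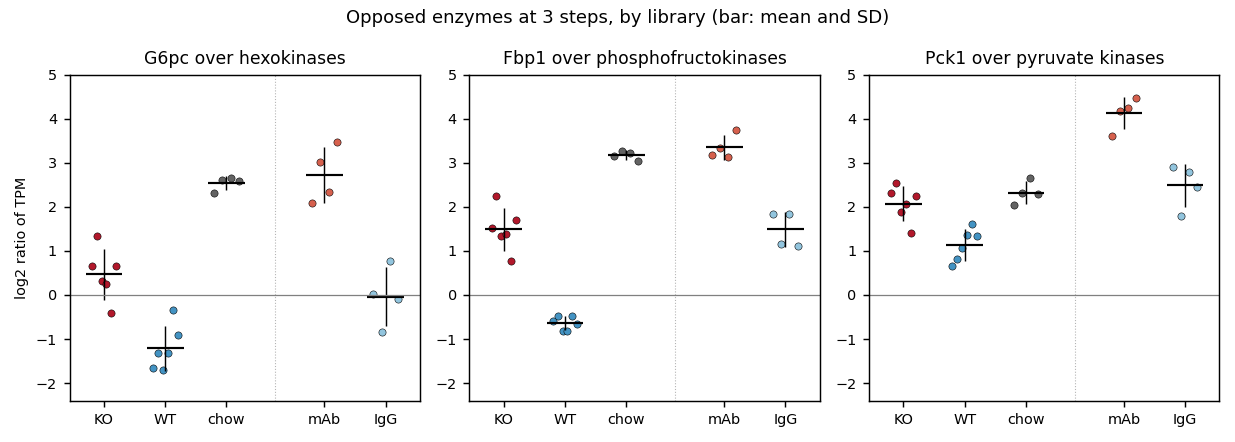
Log2 ratio of TPM (vertical axes, linear) of G6pc to the 3 hexokinases, Fbp1 to the 3 phosphofructokinases and Pck1 to both pyruvate kinases in each library of the labelled knockout (KO), wild type (WT), chow, mAb and IgG groups, all but chow on adenine; bars are mean and SD, and the line at 0 marks equal levels. The first 2 ratios are mostly above 0 in KO (means 0.47 and 1.49) and below 0 in WT (means -1.21 and -0.64).

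Within families, the share of an isozyme was taken per length from the deposited TPM. Hk2 made up 13.0% ± 2.47 of hexokinase TPM in the labelled knockout, 20.8% ± 2.57 in the wild type (SD, n = 6 each) and 1.40% ± 0.808 in chow (n = 4), and 14.8% ± 6.69 with mAb and 38% ± 0.742 with IgG (n = 4 each). The labelled knockout lay below the wild type in every library (8.46% to 15.2% against 16.3% to 23.3%), and mAb below IgG (6.00% to 22.3% against 37.1% to 38.9%). With coding transcripts alone the shares were smaller, 8.30% in the labelled knockout (6.71% to 11.1%) and 12.6% in the wild type (10.6% to 16%), which then overlapped, and 8.90% with mAb and 20.4% with IgG, which did not. Pklr made up 20.8% ± 1.19 of pyruvate kinase TPM in the labelled knockout, 28.6% ± 2.98 in the wild type and 8.27% ± 1.25 in chow, and 29.3% ± 2.52 with mAb and 35.0% ± 0.553 with IgG.

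Slc5a2 made up 97.9% ± 0.354 of the TPM of both sodium-glucose cotransporters in the labelled knockout, 96.4% ± 0.892 in the wild type and 96.0% ± 0.287 in chow. In the antibody experiment the share was 69.4% ± 1.04 with mAb and 62.8% ± 5.48 with IgG. Every library of the antibody experiment lay below every library of the knockout experiment in this share, chow included; the difference between the experiments was not tested, and the labels used here give neither sex nor strain. Pdk4, the kinase that fasting and fatty acids raise, was not among the 38 genes but completes its family. It made up 3.63% ± 0.667 of kinase TPM in the labelled knockout, 12.0% ± 1.63 in the wild type and 5.82% ± 0.572 in chow, and 10.9% ± 3.77 with mAb and 21.4% ± 4.28 with IgG. The mAb and IgG ranges of this share overlapped (6.78% to 15.4% against 15.1% to 24.7%). By CPM and with coding transcripts alone they stood apart. Shares within the phosphofructokinases and the GLUT carriers are not given. Reads of Slc2a1 lay mostly outside coding transcripts in every group, and those of Pfkp did so in labelled knockout and wild type but not in chow, mAb or IgG libraries.

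**Figure D5:**
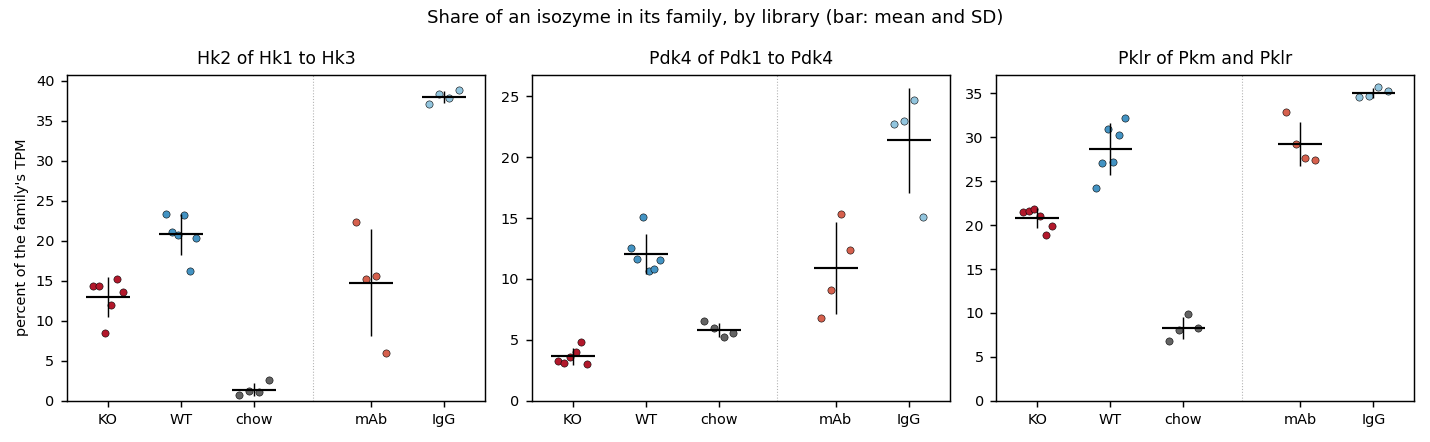
Share of an isozyme in the TPM of its family (vertical axes, percent) in each library of the labelled knockout (KO), wild type (WT), chow, mAb and IgG groups, all but chow on adenine, for Hk2, Pdk4 and Pklr; bars are mean and SD. Hk2 is at 14.8% with mAb against 38% with IgG, and Pdk4 is lowest in KO, at 3.63%.

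Another 62 genes of the pathway were kept in a list apart from the 38. Of 57 tested, 35 were higher in the labelled knockout than in the wild type, 8 were lower and 14 were not called, where 25.1% of all genes were called higher and 21.3% lower. Their median log2 change was 0.48, beside -0.02 over all genes. Of 56 tested with mAb against IgG, 35 were higher, 8 lower and 13 not called, where 27.2% of all genes were called higher and 28% lower, with a median of 0.47 beside -0.04 over all genes. In the labelled knockout against the wild type, Slc2a5, the fructose carrier GLUT5, changed most of these genes, at 18.9 to 48.3 CPM (median 28.9) in the labelled knockout and 5.57 to 9.80 CPM (median 8.06) in the wild type (1.93 ± 0.18, edgeR adjusted p = 1.8e-07). Sord, which turns sorbitol into fructose, ranged from 219 to 588 CPM (median 380.4) and from 98.7 to 146 CPM (median 111) in these groups (1.76 ± 0.17, adjusted p = 2.2e-07). Like Khk, they act in the handling of fructose, and both were higher with mAb as well (1.52 ± 0.20 and 1.83 ± 0.17). With mAb against IgG the largest change in the list was that of Mdh1, the cytosolic malate dehydrogenase, named after its values were seen. Mdh1 was at 36.7, 55.0, 49.4 and 56.8 CPM with mAb and 5.22, 4.32, 5.54 and 7.30 CPM with IgG (3.15 ± 0.17, edgeR adjusted p = 3.2e-05). Its reads lay almost wholly outside coding transcripts, which took 2.65% of them on average with mAb and 0% with IgG, so this value does not describe the coding RNA.

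Slc5a11, a sodium-coupled inositol and glucose carrier, was higher by 1.68 ± 0.14 (edgeR adjusted p = 4.6e-08) and Got2, the mitochondrial aspartate aminotransferase of the malate-aspartate shuttle, by 1.37 ± 0.11 (adjusted p = 4.2e-08). Akr1b3, aldose reductase, which makes sorbitol from glucose, was called higher with 3 libraries far above the rest. It ranged from 37.1 to 301 CPM (median 78.1) in the labelled knockout and from 37.3 to 41.1 CPM (median 38) in the wild type, with overlap (1.81 ± 0.43, adjusted p = 0.002). Replicates 3, 5 and 6 of the labelled knockout stood at 301, 271 and 105 CPM, and the remaining 3 between 37.1 and 50.9 CPM. Pdk4 went against the other kinases, at 8.54 to 11.8 CPM (median 9.67) in the labelled knockout and 21.5 to 30.1 CPM (median 24.8) in the wild type, with 26.6, 23.4, 21.2 and 22.8 CPM in chow (-1.35 ± 0.09, adjusted p = 7.7e-09). With mAb it was at 14.1, 23.0, 35.4 and 33.6 CPM and with IgG at 42.6, 36.4, 43.5 and 23.2 CPM, which did not pass (-0.46 ± 0.27, adjusted p = 0.17). The difference between both effects did pass (-0.97 ± 0.28, adjusted p = 0.0088). Of 25 listed regulators 24 were tested: 9 were higher, 7 lower and 8 not called in the labelled knockout, none by 2-fold, where 46.4% of all genes were called. With mAb 9 were higher, 3 lower and 12 not called, which is 50% called beside 55.3% of all genes and so not above the background.

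The effect of the label and of the antibody was compared by testing their difference in 1 fit of the 20 adenine libraries. Of the 38 genes, 6 had a higher effect in the labelled knockout, 6 a lower one and 26 were not called, where 37.9% of 17113 genes were called, 16.3% higher and 21.6% lower. The count of higher effects was 2 without IgG replicate 2, 3 without mAb replicate 4 and 3 with transcript lengths as an offset, and that of lower effects was 3 under upper-quartile scaling. The median difference was -0.06 on the log2 scale, beside -0.03 over all genes. Among the genes of gluconeogenesis and glucose transport, Pck2 alone was called. For G6pc the difference was -0.84 (95% interval -1.76 to 0.07), and without IgG replicate 3 it was called (-1.14, edgeR adjusted p = 0.048). For Fbp1 it was 0.26 (95% interval -0.38 to 0.90). Khk, Gpi1, Pfkfb3, Aldoc, Pgam1 and Pdhb were also called under at least 1 alternative.

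The higher effects were those of Slc16a3 (1.22 ± 0.27, edgeR adjusted p = 0.0015), Ldhb (1.00 ± 0.17, adjusted p = 0.00012), Hk3 (0.96 ± 0.34, adjusted p = 0.029), Hk2 (0.64 ± 0.23, adjusted p = 0.035), Pck2 (0.27 ± 0.09, adjusted p = 0.027) and Pkm (0.26 ± 0.09, adjusted p = 0.028). For the first 5 of these the fall with mAb was larger than that in the labelled knockout. Slc16a3 and Hk3 were not called there at all. Higher effects were also called for all 9 macrophage, all 7 fibroblast and 5 of 6 proliferation markers, beside 16.3% of all genes. They were called for 2 of 5 neutrophil, 1 of 7 injured tubule and 1 of 8 lymphocyte markers. The lower effects were those of Tpi1 (-1.74 ± 0.33, adjusted p = 0.00043), Ldhd (-0.99 ± 0.16, adjusted p = 7.6e-05), Pdha1 (-0.64 ± 0.13, adjusted p = 0.00063), Pdk3 (-0.38 ± 0.14, adjusted p = 0.035), Pdk1 (-0.36 ± 0.10, adjusted p = 0.007) and Pdk2 (-0.34 ± 0.13, adjusted p = 0.048). Of the 5 genes at the pyruvate dehydrogenase step, 4 had a larger effect with mAb than in the labelled knockout in the fit reported. The calls of Slc16a3, Ldhb, Tpi1, Ldhd and Pdha1 held under every alternative run, while those of Pck2, Hk2, Hk3, Pkm, Pdk1, Pdk2 and Pdk3 were each lost under at least 1 of them (adjusted p up to 0.664). The size for Tpi1 and Ldhd depended on the transcripts counted, at -3.89 and -2.93 with coding transcripts alone. Most reads of Ldhd in every group, and of Tpi1 in every group but mAb, lay outside coding transcripts. The experiments differ in controls, depth and possibly in mice, so the experiment and the intervention cannot be told apart in these differences.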

How the data were processed

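Per the labels' protocols, 400 ng of total kidney RNA entered each stranded library. Salmon, FastQC, DESeq, DESeq2 and the assembly GRCm39 are named in the submitters' processing notes. Their roles, versions and options were not stated. The authors deposited estimated counts per transcript (expected counts, not normalized) and TPM, which is scaled per transcript length to a fixed total, per the file headers. Effective lengths in the deposited files, another column per the file headers, served as an offset in an alternative setting.

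Transcripts were matched by identifier to GENCODE M21 (GRCm38), which left out 0.45% to 0.57% of a library's reads. Estimated counts were summed per gene and rounded. The 16 libraries of the knockout experiment, the 8 of the antibody experiment and the 20 adenine libraries each had a fit with edgeR 4.0.16 in R 4.3.3 (filterByExpr, TMM, quasi-likelihood F test, two-sided, Benjamini-Hochberg adjustment over all genes, threshold 0.05), tested on simulated data. CPM are scaled by TMM within an experiment. TPM entered shares and ratios only, to compare genes per length.

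Members, gene lists and tests were chosen with earlier results of these data known. Values per library are given for up to 3 genes of each role with the largest change between labelled knockout and wild type, for isozyme partners, for the 5 largest changes between mAb and IgG, and for other pathway genes changed at least 2-fold, up to 6. Other genes with values were chosen after their values were seen. Planned correlations of members with markers are not given, because the libraries fall into separate clusters by group. Same-numbered libraries deviated from their group means with correlations of -0.14 to 0.07, so replicate numbers were not taken as pairs. Alternatives were RLE and upper-quartile scaling, no filter on low counts, DESeq2 1.42.0, limma voom 3.58.1, transcript-length offsets, mitochondrial genes left out, the replicate block, each library left out in turn and, added after seeing the data, coding transcripts only; all members, called or not, were recomputed under each.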

Additional observations from a re-analysis of the deposited data

Results flagged for a closer look

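Of 190 sets of 1 gene in 1 group of libraries, 8 held a library that stood far from the rest of its group; chance gives about 1 in 20. Replicate 5 of the labelled knockout was high for Hk2, at 19.6 CPM against 12.3 to 14.8 CPM in the others, and for Tpi1, at 19.97 CPM against 9.72 to 13.0 CPM; it also had the lowest proximal tubule markers of its group. Replicate 2 of the labelled knockout was low for Pfkl, at 41.4 CPM against 43.3 to 44.1 CPM. In the wild type, replicate 3 was low for Hk1, at 75.6 CPM against 84.1 to 89.2 CPM, replicate 1 high for Pfkfb3, at 27.8 CPM against 23.4 to 24.9 CPM, and replicate 4 high for Tpi1, at 27.6 CPM against 13.1 to 17.5 CPM. With mAb, replicate 2 was high for Slc16a3, at 0.58 CPM against 0.516 to 0.519 CPM, and replicate 1 low for Slc5a2, at 69.7 CPM against 93.9 to 98.8 CPM.

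For 12 of the 38 genes the log2 change of the labelled knockout over the wild type differed from that of mAb over IgG (edgeR, adjusted over all genes). This is 31.6% of them, beside 37.9% of all 17113 genes tested, and so not above the background. The difference was positive for Slc16a3 (1.22), Ldhb (1.00), Hk3 (0.96), Hk2 (0.64), Pck2 (0.27) and Pkm (0.26). It was negative for Tpi1 (-1.74), Ldhd (-0.99), Pdha1 (-0.64), Pdk3 (-0.38), Pdk1 (-0.36) and Pdk2 (-0.34). The calls of Pck2, Hk2, Hk3, Pkm, Pdk1, Pdk2 and Pdk3 were each lost under some of the alternatives.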

How the results depend on the processing

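Counts of calls stayed within 1.5 times in 172 of 176 cases under other settings and in 302 of 304 with a library left out. Gene changes kept their call in 1614 of 1672 and 2825 of 2888, and their direction too where either fit called them. A turn of sign in a gene that neither fit called was not counted as a change. With coding transcripts alone, chosen after seeing the data, some log2 changes called in either fit turned. Pfkp turned in labelled knockout over wild type (0.10), wild type over chow (-0.37) and labelled knockout over chow (-0.27). Pck2 (-0.12) and Slc2a1 (0.18) turned in labelled knockout over chow, and Slc2a1 in mAb over IgG (0.86). Between the effects of label and antibody, 3 genes were higher with the length offset, and 3 lower under upper-quartile scaling, where 4495 of all genes were higher and 2014 lower (2788 and 3695 under TMM). The cause was not tested. Upper-quartile scaling moved the median of all genes by 0.23 (wild type over chow), 0.16 (labelled knockout over chow), -0.16 (mAb over IgG) and 0.16 (between effects).

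With a library left out, the members higher and lower were 27 to 28 and 5 to 6 in labelled knockout over wild type, 7 to 9 and 29 in labelled knockout over chow, 25 to 27 and 6 to 7 in mAb over IgG, and 2 to 6 and 4 to 8 between effects, where 2 were higher without IgG replicate 2 and 3 without mAb replicate 4. With the replicate number as a block, 27 and 5, 7 and 29, and 25 and 6 were called in labelled knockout over wild type, labelled knockout over chow and mAb over IgG; Tpi1, Pfkp and Aldoa were lost, and wild type over chow gave 8 and 29. Between effects no block could be fitted, as numbers are not shared across experiments.

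In percentage points, the Hk2 share of labelled knockout minus wild type was -4.33 with coding transcripts alone (-7.81 as reported), and of mAb minus IgG -16.2 by CPM and -11.5 with coding transcripts (-23.3). For labelled knockout minus wild type, the Slc5a2 share differed by 5.15 by CPM and 3.71 with coding transcripts, and Pdk4 by -11.6 by CPM. Low genes such as Slc16a3 and Hk3 rest on few reads.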
